A study of Labrus bergylta with 25 samples.

Results

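A bolus of hydrolyzed protein was compared with a bolus of cellulose in Segment 1 of the gut of ballan wrasse (Labrus bergylta), a fish without a stomach. The comparison used the 13 RNA-seq libraries that carry these 2 treatment labels, 6 Protein libraries (10, 11, 20, 22, 32 and 33) and 7 Cellulose libraries (13, 16, 17, 23, 25, 27 and 31), out of 25 libraries in all. The other 12 libraries came from 6 intestines given hydrolyzed lipid and 6 left Empty. Every library was made from 1 intestine of a juvenile female fish, taken out of the body, flushed, given its bolus or left Empty, and kept for an hour in aerated Ringer's solution at 14 °C. The Protein and Cellulose boli were each sized to mimic a meal of 0.1% of body weight. The contrast thus set a digestible content against an inert one, matched in size when given. In separate motility recordings, the paper reports faster emptying of the anterior gut with cellulose than with protein. Filling and stretch at sampling may therefore have differed between the groups, which was not tested. The protein mix was bovine casein digested with trypsin in ammonium bicarbonate and dilute hydrochloric acid, with the trypsin inactivated by heat and a protease and phosphatase inhibitor cocktail added. The cellulose mix was microcrystalline powder in water with a trace of Brilliant Blue dye, and the effect of the peptides cannot be told apart from that of the other ingredients in which the mixes differed. The lipid mix was cod liver oil treated with lipase.

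Segment 1, also called the bulbous, is the wide anterior end of the intestine, which receives food straight from the esophagus in fish that have lost the stomach. In vertebrates generally, enteroendocrine cells of the gut lining sense peptides and amino acids in the lumen and release hormones such as cholecystokinin that act on motility, secretion and appetite, while stretch of the wall is sensed by nerves and muscle. Cellulose fills and stretches the gut and is not digested by the fish's own enzymes, and hydrolyzed protein fills it and also brings absorbable peptides. The libraries were made from whole tissue, and fewer cells of a type and less RNA per cell cannot be told apart in them. The deposited genes carry identifiers of an annotation that none of the sources used here pairs with gene names, and 0 of the 20208 identifiers matched the RefSeq table, so genes are described below by level and size of change, markers of cell types could not be looked up, and no list of nutrient sensors, hormones, transporters or ribosomal proteins could be applied.

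The values used here are reads per gene divided by a size factor of the library, and the reads behind them could be worked back for all 13 libraries. Reads on the listed genes ranged between 10160088 and 31586869. Protein library 33 was the deepest with 31586869 reads, 1.95 times the next Protein library (16218891) and 2.25 times the median of the 13. Mean depth was 17.4 ± 7.09 M reads (M, mega) in Protein libraries and 14.1 ± 3.66 M reads in Cellulose libraries (SD, n = 6 and 7; two-sided exact permutation p = 0.330). Genes at 0 reads numbered 155 ± 78.3 in Protein libraries and 260 ± 189 in Cellulose libraries (SD, n = 6 and 7; exact permutation p = 0.233). Protein library 20 had 308, the most of the Protein libraries, and Cellulose library 27 had 659, the most of all 13. Protein library 33 had 89, the fewest of all 13. Every library had more genes at 0 than predicted from its depth and the mean levels in the other libraries of its group. The ratio ran between 2.46 in Cellulose library 16 and 15.6 in Protein library 33 (89 against 5.70), with Cellulose library 27 at 14.1 (659 against 46.9). Any spread between fish raises this ratio, and a small prediction such as 5.70 makes it large, so it does not rank the libraries by quality. The 100 most abundant genes took 30.4 ± 2.27% of the reads in Protein libraries and 29.2 ± 2.54% in Cellulose libraries (SD, n = 6 and 7; exact permutation p = 0.383). None of 5 such measures separated the groups, with an adjusted p of 0.383 for each.

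The libraries of the 2 treatments lay apart on the main axis of variation, without a complete separation. On the first principal component of the 13 libraries, which carried 14.5% of the variance, Protein libraries scored 25.6 ± 31.4 and Cellulose libraries -21.9 ± 19.4 (SD, n = 6 and 7), a difference of 47.5 with a two-sided exact permutation p = 0.00233 and an adjusted p of 0.00699 over 3 components. Protein library 33 had the highest score, 83.5, and Protein library 32 the lowest of the Protein libraries, -3.29, below the 4.65 of Cellulose library 25. Cellulose libraries 27 and 31 had the lowest scores, -45.3 and -44.7. The deepest library was thus also the one farthest toward the Protein end. Without it the mean scores of the groups still differed by 49.3 on the first component (exact permutation p = 0.00505, adjusted p = 0.0152). Among Cellulose libraries scores moved with depth in part. The shallowest pair, 31 and 16 (10160088 and 10413012 reads), scored -44.7 and -29.7. The deepest pair, 25 and 17 (19732023 and 18232158 reads), scored 4.65 and -8.39. Library 27 had the lowest score, -45.3, at 12752768 reads. Protein libraries 20, 10, 11, 32 and 22, from shallowest to deepest, scored 6.52, 14.3, 37.1, -3.29 and 15.2, with no steady order. The part of depth in the component was not tested as such, and over genes with a mean value of at least 50 alone the groups differed by 32.9 (exact permutation p = 0.00175). On the second component the groups differed by 10.8 (exact permutation p = 0.590) and on the third by 16.8 (exact permutation p = 0.344).

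**Figure D1:**
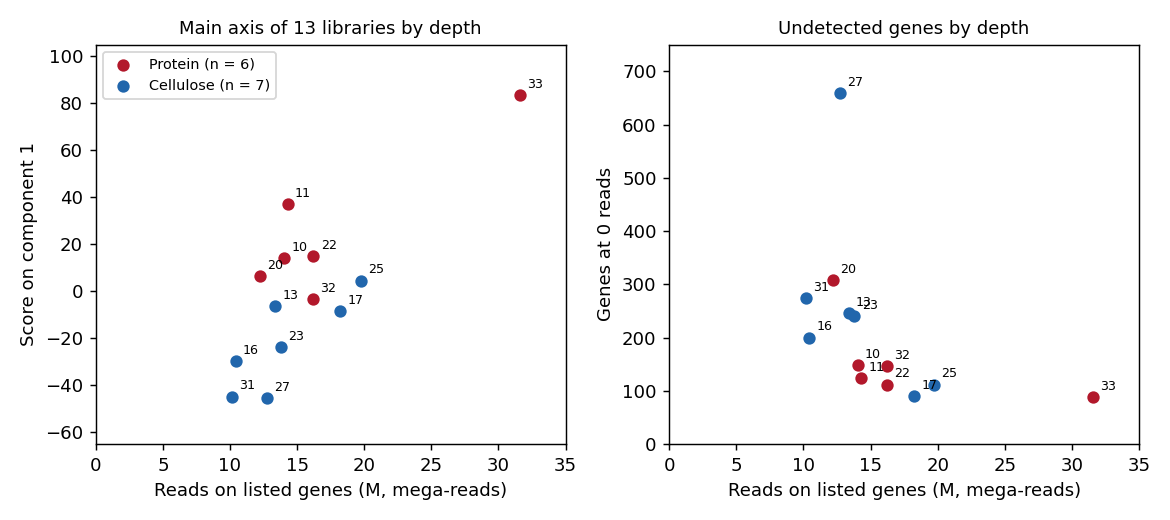
Left, score of each library on the first principal component (y axis, no unit) against its reads on listed genes (x axis, in M reads). Right, number of genes at 0 reads against the same depth. Each point is 1 library with its number, Protein in one colour (n = 6) and Cellulose in the other (n = 7). Library 33 stands alone at 31.6 M reads with the highest score, 83.5, and Cellulose library 27 stands alone with 659 genes at 0.

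Across the transcriptome most estimated differences between Protein and Cellulose were small. Of the 19033 genes that passed a filter on low values (more than 10 in 5 or more of the 25 libraries), 517 (2.72%) had an unadjusted p under 0.01 in limma's moderated test on log2(value + 1), where this threshold by itself would pass 190. Of these, 251 (1.32% of tested genes) were higher with Protein and 266 (1.4%) were lower. No gene reached an adjusted p under 0.05 in limma, the smallest being 0.0914, while 1943 had an unadjusted p under 0.05. The 517 genes are called changed below in this limited sense only. The median absolute log2 fold change was 0.19 over all tested genes. It was 0.66 for the genes called higher, with values between 0.29 and 6.33, and -0.60 for those called lower, with values between -0.25 and -4.37. A change of at least 1 on the log2 scale was found in 65 genes called higher and 56 called lower. Changes under 0.5 made up 154 calls, 65 higher and 89 lower.

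A large change was no guarantee of a call. Among all tested genes, 659 differed by at least 1 on the log2 scale (370 higher and 289 lower with Protein), and 18.4% of them were called. Complete separation of the libraries was also rare. In 46 genes (0.242%) all 6 Protein libraries lay above all 7 Cellulose libraries, and in 54 (0.284%) all 6 lay below. Of the called genes, 29 and 37 were separated in this way. Over all levels together, the median SD of called genes within the groups was close to that of all tested genes. For genes called higher it was 0.34 in Protein and 0.32 in Cellulose on the log2 scale, and for genes called lower 0.35 and 0.29. For all tested genes it was 0.37 in Protein and 0.34 in Cellulose. These medians are not matched for level. The median mean value was 188 for genes called higher and 411 for genes called lower, against 156 for all tested genes. All tested genes with a mean value of 200 to 1000 had median SDs of 0.26 in Protein and 0.24 in Cellulose. The p threshold also depends on the SD.

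Estimated changes were largest in weak genes, smallest at moderate levels and somewhat larger again in the strongest genes. A median absolute change grows with the error of the estimates even where nothing differs, so this order does not rank true effects. Genes were placed in 5 classes by their mean value over the 25 libraries, and the median absolute log2 fold change of all tested genes was 0.33 below 50, 0.20 between 50 and 200, 0.14 between 200 and 1000, 0.15 between 1000 and 5000, and 0.25 at 5000 and above. The median 95% interval of a log2 fold change reached 0.89 to either side below 50, 0.45 between 50 and 200, 0.31 between 200 and 1000, 0.30 between 1000 and 5000, and 0.37 at 5000 and above. The weakest genes therefore needed more than the strongest to be called. The smallest called change was 0.60 below 50 and between 0.25 and 0.36 in the other classes. The spread exceeded counting error at every level. In the class below 50, with a median of 20.7 reads per gene, the residual SD was 0.77 on the log2 scale against 0.40 from counting alone, and at 5000 and above, with a median of 9627 reads, it was 0.32 against 0.02.

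At the median, the called changes were largest in the weakest genes, where the p threshold passed only large changes. The order of these medians by level thus follows in large part from the threshold. The largest single called change was 3.42 below 50 and 6.33 between 50 and 200. The medians of the higher calls were smaller in each class of stronger genes, and those of the lower calls were smallest between 1000 and 5000. In genes below 50, 83 of 5475 (1.52%) were called, with median log2 fold changes of 1.27 for the 56 higher genes and -1.26 for the 27 lower ones, and 62 of the 83 differed by at least 1. Between 50 and 200, 132 of 5059 (2.61%) were called, with medians of 0.67 for 73 higher genes and -0.79 for 59 lower ones, and 35 differed by at least 1. Between 200 and 1000, 180 of 5919 (3.04%) were called, with medians of 0.56 for 69 higher genes and -0.53 for 111 lower ones, and 16 differed by at least 1. Moderately strong genes were thus called more often as lower than as higher with Protein in limma, and the class above them leaned further the same way. In edgeR's test on reads of the 13 libraries the lean was weaker. It gave 115 higher and 126 lower genes between 200 and 1000, and 50 and 65 between 1000 and 5000. The median log2 fold change of all tested genes was also below 0 in these classes, at -0.01 and -0.05. It was 0.05 below 50 and 0.04 between 50 and 200. Between 1000 and 5000, 80 of 2176 (3.68%) were called, with medians of 0.49 for 22 higher genes and -0.49 for 58 lower ones, and 6 differed by at least 1. In the strongest class, 42 of 404 genes (10.4%) were called, with medians of 0.46 for 31 higher genes and -0.59 for 11 lower ones, and 2 differed by at least 1. Calls were most frequent where intervals were not the narrowest. With 1 library left out, the share called at 5000 and above ran between 5.94% and 17.3%. The share of genes with complete separation of the groups ran between 0.347% below 50 and 1.24% at 5000 and above. In the strongest class it rested on 3 higher and 2 lower genes.

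**Figure D2:**
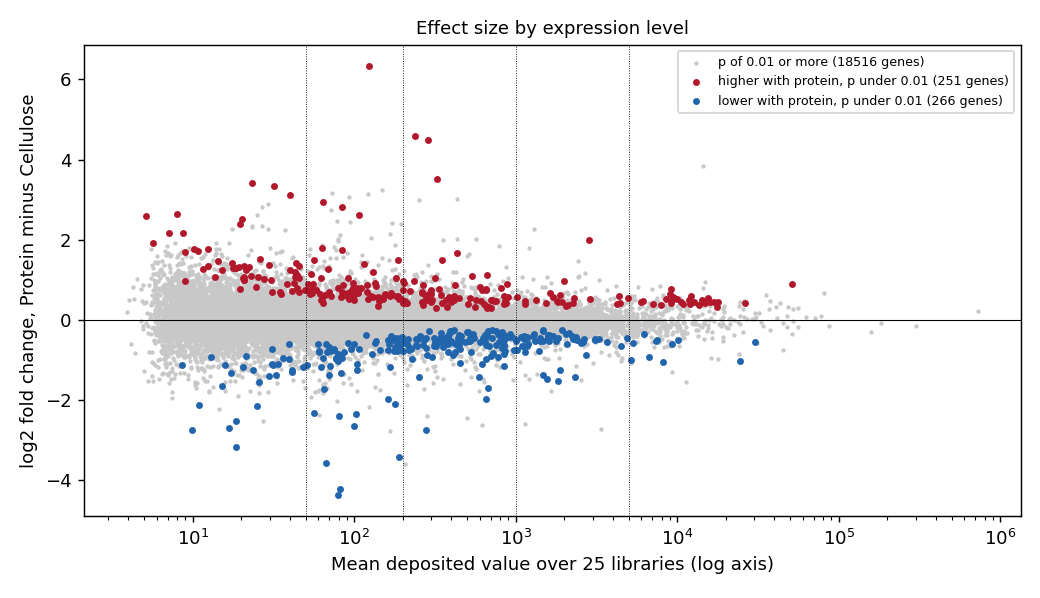
Log2 fold change of Protein minus Cellulose (y axis, on log2(value + 1)) against the mean deposited value over 25 libraries (x axis, log scale) for the 19033 tested genes. Grey points are genes with p of 0.01 or more, red points the 251 genes called higher and blue points the 266 called lower with Protein, and dotted lines mark values of 50, 200, 1000 and 5000. Called changes crowd toward 0 at high levels, with medians of 0.46 and -0.59 at 5000 and above. Below 50 they lie beyond 0.60, where wider intervals let only larger changes be called.

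The direction of the calls among the most abundant genes rested on 1 library. With all libraries, 31 of the 42 called genes at 5000 and above were higher with Protein. Without Protein library 20, 30 genes of this class were called, 8 higher and 22 lower, and 8 of the 31 higher genes kept their call. In library 20 the 404 genes of this class stood on average 0.36 above their mean over the 25 libraries on the log2 scale, against -0.09 to 0.08 in the other Protein libraries and -0.14 to 0.13 in Cellulose libraries. Leaving out any other library left more higher than lower calls in the class. The class gave 18 higher and 7 lower without Protein library 33, and 49 higher and 21 lower without Protein library 32. In the class between 1000 and 5000 the calls were mostly lower with every library left out in turn. The part of library 20 in the abundant genes was not tested further.

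The 31 abundant genes called higher moved together from library to library. Within the 4 groups, the correlation of their levels over the 25 libraries had a median of 0.66 between pairs of genes, and 98.7% of pairs were positively correlated, so that they do not count as 31 separate observations. Together they took 3.41 ± 0.40% of the reads in Protein libraries and 2.39 ± 0.20% in Cellulose libraries (SD, n = 6 and 7). The genes were chosen for being higher in these Protein libraries, so the direction of this difference follows from the choice. Their mean log2 level relative to the 25 libraries ran between -0.08 and 0.54 in Protein libraries, with library 20 highest, and between -0.38 and 0.03 in Cellulose libraries, and the ranges overlapped.

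Individual genes are shown for the smallest p in each direction, over all levels and among genes with a mean of at least 1000. Because they were chosen in these same libraries, their fold changes and intervals may overstate the difference. LABE_00025806-RA had the smallest p of all genes and was higher with Protein. Its values ran between 321 and 677 with a median of 610 in Protein libraries, and between 109 and 277 with a median of 142 in Cellulose libraries. Every Protein library lay above every Cellulose library, with Protein library 32 at 321 far below the other Protein libraries, which lay at 574 and above. Means were 570 ± 126 in Protein libraries and 186 ± 72.2 in Cellulose libraries (SD, n = 6 and 7). The log2 fold change was 1.66 with an SE of 0.28, a 95% interval of 1.07 to 2.25, and an adjusted p of 0.0914 in limma. Library 33 was not its highest Protein library, and without it the log2 fold change was 1.63.

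LABE_00005599-RA was among the most abundant genes of the tissue. It had 60616, 91177, 42816, 71462, 47921 and 99738 in Protein libraries 10, 11, 20, 22, 32 and 33, against 40472, 44089, 41986, 47306, 29770, 26599 and 23315 in Cellulose libraries 13, 16, 17, 23, 25, 27 and 31. Library 33 was the highest of all, and the groups overlapped, since Protein library 20 lay below 2 Cellulose libraries. Means were 68955 ± 22991 in Protein libraries and 36220 ± 9459 in Cellulose libraries (SD, n = 6 and 7). The log2 fold change was 0.91 with an SE of 0.21, a 95% interval of 0.47 to 1.34, and an adjusted p of 0.260 in limma, and it was 0.79 without library 33 (adjusted p = 0.463).

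LABE_00021266-RA was lower with Protein at a moderate level. It ran between 119 and 180 with a median of 150 in Protein libraries, and between 203 and 308 with a median of 252 in Cellulose libraries. The groups did not overlap, and libraries 22 and 33 were the lowest of the Protein libraries. The log2 fold change was -0.76 with an SE of 0.16, a 95% interval of -1.10 to -0.43, and an adjusted p of 0.260 in limma. LABE_00073309-RA had the smallest p of the genes lower with Protein that had a mean of at least 1000. Its values were 1252, 965, 556, 469, 1283 and 652 in Protein libraries 10, 11, 20, 22, 32 and 33, against 4273, 2068, 2199, 1719, 2632, 1810 and 1726 in Cellulose libraries 13, 16, 17, 23, 25, 27 and 31. All Protein libraries lay below all Cellulose libraries, and Cellulose library 13 was the highest by a wide margin. The log2 fold change was -1.48 with an SE of 0.34, a 95% interval of -2.19 to -0.76, and an adjusted p of 0.260 in limma.

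**Figure D3:**
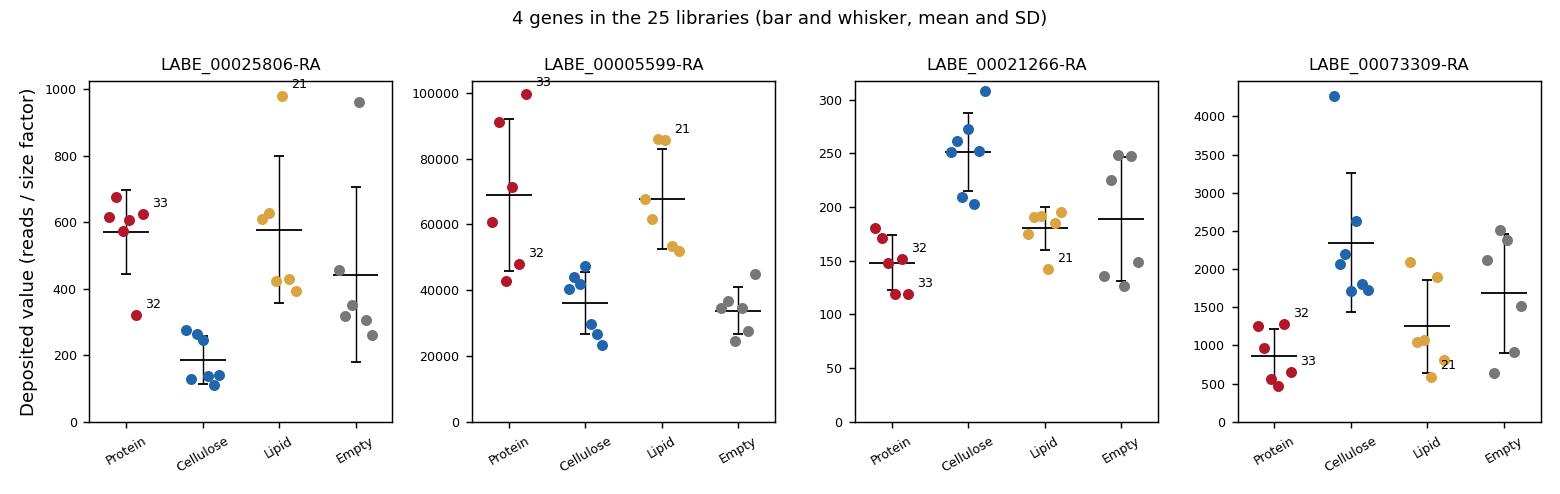
Deposited value (reads divided by the size factor, y axis starting at 0) of 4 genes in each library, by group from left to right Protein (n = 6), Cellulose (n = 7), Lipid (n = 6) and Empty (n = 6). Points are libraries, horizontal bars are means and whiskers are SD, and the numbers 33, 32 and 21 mark those libraries. Protein and Cellulose libraries do not overlap for LABE_00025806-RA, LABE_00021266-RA and LABE_00073309-RA, and overlap for LABE_00005599-RA between 42816 and 47306.

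Close to 1 in 2 of the calls rested on Protein library 33. Without it, 332 genes (1.74%) were called, 152 higher and 180 lower, and 272 of the 517 (52.6%) kept their call, 121 higher and 151 lower. The other 245 genes, 130 higher and 115 lower, lost it, and 60 genes were gained. No gene turned its direction, and all 245 lost genes still had an unadjusted p under 0.05, the largest being 0.0464. The lost genes had smaller changes at the median than the kept ones. Their median absolute log2 fold change was 0.57 with library 33 and 0.49 without it, and their median p was 0.0179 without it. The kept genes had a median absolute log2 fold change of 0.71 with library 33 and 0.70 without it. Their fold change without library 33 was between 0.73 and 1.24 times that with it.

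Dependence on library 33 was alike at each expression level. The share of calls kept without it was 53.0% below 50, 57.6% between 50 and 200, 50.6% between 200 and 1000, 48.8% between 1000 and 5000, and 52.4% at 5000 and above. Reducing its depth changed few calls. With its reads thinned at random to 14299817, the depth of Protein library 11, 507 genes were called, 246 higher and 261 lower, and 486 of the 517 kept their call.

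Library 33 was the most extreme Protein library in the called direction for 182 of the 517 genes (35.2%), against 25.9% of all tested genes. It was so in 128 of the 245 genes lost without it (52.2%) and in 54 of the 272 kept (19.9%). The calls were made with library 33 and both sets were chosen by removing it, so these shares describe the sets and test nothing. Protein library 20 was the most extreme for 113 called genes (21.9%), library 22 for 98, library 11 for 60 (11.6%), library 10 for 44 (8.51%) and library 32 for 20 (3.87%). The median distance from the Cellulose mean in the called direction was 0.78 for library 33, between 0.59 and 0.70 for libraries 10, 11, 20 and 22, and 0.36 for library 32, on the log2 scale. On the Cellulose side, library 31 was the most extreme for 152 called genes (29.4%) and the others for between 6.96% and 14.7% each.

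Library 33 was not the only library on which calls rested, and Protein library 32 acted in the opposite way. Leaving out 1 of the other Protein libraries or of the Cellulose libraries kept between 324 and 434 of the 517 calls. The fewest were kept after library 33, with 272, and then after Protein library 22 and Cellulose library 31, with 324 each. Without Protein library 32, 715 genes were called, 371 higher and 344 lower, 434 of the 517 kept their call, and 1 gene had an adjusted p under 0.05 (0.0313). The 4 genes described above stayed under the threshold with every library left out in turn, which their choice by the smallest p made nearly certain.

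**Figure D4:**
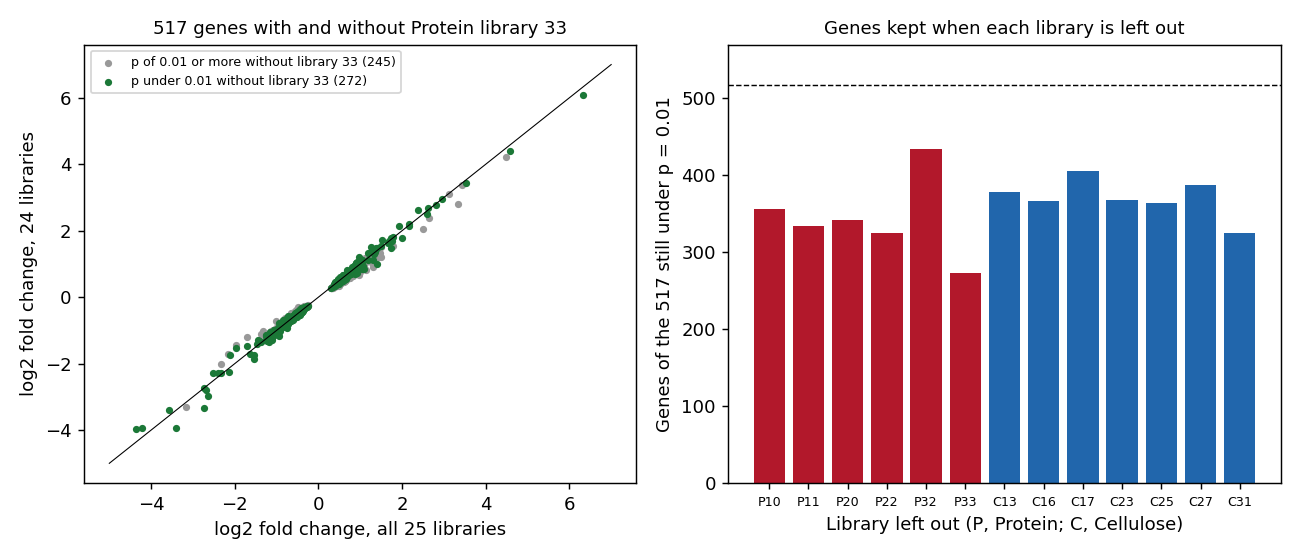
Left, log2 fold change of the 517 called genes with all 25 libraries (x axis) and without Protein library 33 (y axis), with the line of equality; green points are the 272 genes that kept their call and grey points the 245 that lost it. Right, number of the 517 calls kept (y axis, starting at 0) when each library is left out (x axis; P, Protein; C, Cellulose), with a dashed line at 517. Points lie along the line of equality with no change of sign, and the bar for P33 is the lowest at 272 while that for P32 is the highest at 434.

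The number of calls depended on the test. With 1 surrogate variable added to the fit of all 25 libraries, limma called 294 genes, 132 higher and 162 lower, and with library weights 820, 414 higher and 406 lower. All values of the 13 libraries came out as whole reads (100%, within 0.01), so tests on reads were run as alternatives. On the 13 libraries alone, limma on log2(value + 1) called 710 genes at p under 0.01, edgeR's quasi-likelihood test 738, voom 726 and DESeq2 1056. At an adjusted p under 0.05 these tests gave 4, 1, 0 and 285 genes, so that calls at this level of correction came almost wholly from DESeq2. Of the 517 genes, limma on the 13 libraries kept 416, edgeR 406, voom 401 and DESeq2 469, and all 517 had the same direction in each of these 4 tests. Without library 33, edgeR called 518 genes and DESeq2 817, with 0 and 106 at an adjusted p under 0.05.

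The genes called between Protein and Cellulose were also followed in the 12 Lipid and Empty libraries. The values of these libraries did not enter the difference of Protein and Cellulose, but they shared the filter on low values and the estimate of spread in the fit that made the calls. Of the 251 genes called higher with Protein, 201 (80.1%) were higher in Lipid than in Empty libraries, with a median log2 fold change of 0.18, and 12 of them were called higher and 0 lower. Of the 266 genes called lower with Protein, 217 (81.6%) were lower in Lipid than in Empty libraries, with a median of -0.18, and 3 were called lower and 0 higher. Among all tested genes, 50.3% were higher in Lipid, the median log2 fold change was 0.00, and 0.504% were called higher and 0.284% lower. Lipid minus Empty differed from Protein minus Cellulose in that the Empty intestines were given no bolus. The differences were small beside those that chose the genes, and the group ranges overlapped. The mean log2 level of the 251 higher genes ran between 0.13 and 0.71 in Protein libraries and between -0.57 and -0.32 in Cellulose libraries. It ran between -0.11 and 0.55 in Lipid libraries and between -0.32 and 0.24 in Empty libraries. Averaged over libraries, it was 0.47 in Protein, -0.44 in Cellulose and -0.08 in Empty libraries. For the 266 lower genes these averages were -0.46, 0.35 and 0.12. Empty libraries lay between the compared groups on average, a position that the choice of the genes by this difference favours. Higher or lower with Protein names the contrast with Cellulose only, and how far each group departed from Empty was not tested.

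This pattern was present at each level of expression. The classes were read in the same 12 libraries, so they do not repeat the result, and genes are not separate observations. The mean log2 level of the 251 higher genes was 0.12 ± 0.24 in Lipid and -0.08 ± 0.20 in Empty libraries (SD, n = 6 each). For the 266 lower genes it was -0.07 ± 0.19 and 0.12 ± 0.19. These differences between libraries were not tested. Of the genes called higher with Protein, 37 of 56 were higher in Lipid below 50, 56 of 73 between 50 and 200, 59 of 69 between 200 and 1000, 18 of 22 between 1000 and 5000, and 31 of 31 at 5000 and above. Over all tested genes of these classes, 55.3%, 52.3%, 46.1%, 43.2% and 55.4% were higher in Lipid. The higher calls came nearest to the class share below 50, at 66.1% against 55.3%. The 31 abundant genes moved together and are not separate observations. Of the genes called lower, 20 of 27, 43 of 59, 95 of 111, 51 of 58 and 8 of 11 were lower in Lipid in the same classes. The shares of all tested genes lower in Lipid were 44.7%, 47.7%, 53.9%, 56.8% and 44.6%. Lipid library 21, with 0.55, had the highest mean level of the higher genes among the 12 libraries. Without it, 174 of the 251 (69.3%) were higher in Lipid with a median of 0.10, 198 of the 266 (74.4%) were lower with a median of -0.13, and 27 of the 31 abundant genes were higher.

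The 4 genes shown above differed in this respect. LABE_00005599-RA had a mean of 67709 ± 15145 in Lipid libraries and 33825 ± 7124 in Empty libraries (SD, n = 6 each), and all Lipid libraries (51951 to 86064) lay above all Empty libraries (24548 to 44862). The two-sided exact permutation p was 0.00216 (n = 6 each), the smallest that 6 against 6 libraries allow, and 0.00866 when adjusted over the 4 genes. In limma the unadjusted p was 0.000113 and the adjusted p over all tested genes was 0.987. LABE_00025806-RA had 577 ± 221 in Lipid libraries and 442 ± 263 in Empty libraries (SD, n = 6 each; exact permutation p = 0.214), both above the Cellulose mean of 186. LABE_00073309-RA had 1251 ± 607 in Lipid libraries and 1684 ± 782 in Empty libraries (SD, n = 6 each; exact permutation p = 0.370). LABE_00021266-RA had 180 ± 19.8 in Lipid libraries and 189 ± 57.7 in Empty libraries (SD, n = 6 each; exact permutation p = 0.942). Both means lay between its Protein mean of 148 and its Cellulose mean of 251, a position that its choice by this difference favours.

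**Figure D5:**
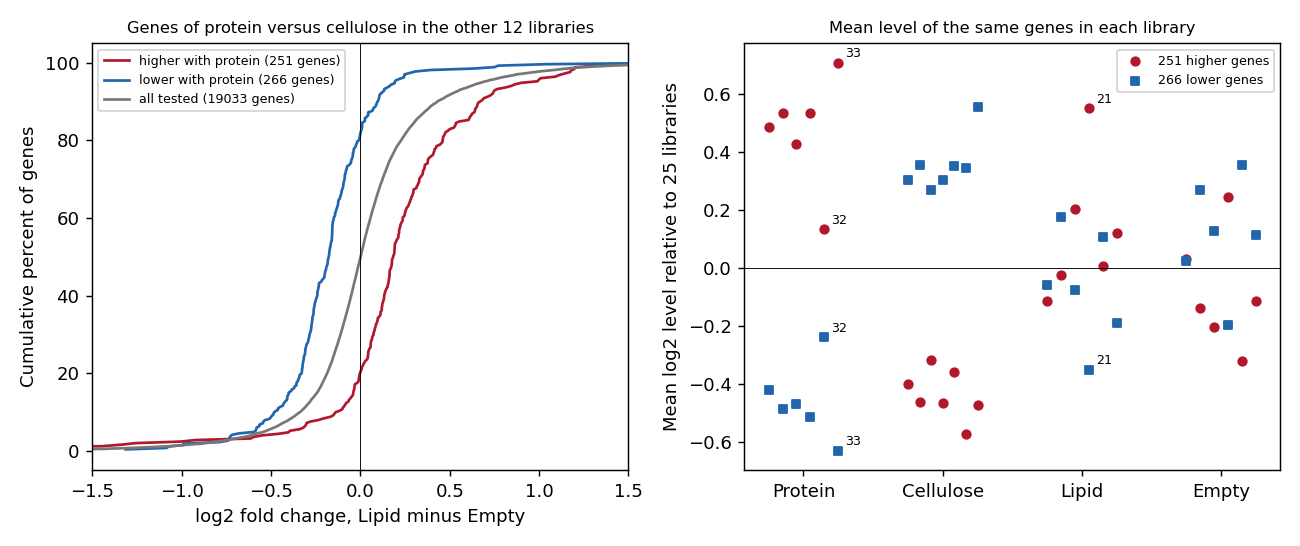
Left, cumulative percent of genes (y axis) by log2 fold change of Lipid minus Empty (x axis) for the 251 genes called higher with Protein, the 266 called lower and all 19033 tested genes. Right, mean log2 level of the higher and the lower genes relative to the 25 libraries (y axis) in each library, by group; numbers mark libraries 32, 33 and 21. The curve of the higher genes lies to the right of that of all genes and the curve of the lower genes to the left, with medians of 0.18 and -0.18, and Lipid library 21 stands highest among the Lipid and Empty libraries at 0.55.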

How the data were processed

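Total RNA of Segment 1 was made into TruSeq stranded mRNA libraries and sequenced as single reads of 75 bases. The authors trimmed the reads (Trim Galore 0.4.2), aligned them by HISAT2, assigned them to genes by featureCounts and deposited a normalized signal, each count divided by the DESeq2 size factor of its library. Reads were recovered from the step between the lowest values. Values were whole numbers of such steps in all 25 libraries (100%, within 0.01). Reads were taken for 23 of them, including all of the 13 compared, and not for Lipid library 21 and Empty library 19. Groups came from the treatment labels, which number each library separately, so no libraries were paired. They name no batch, and nothing beyond 1 intestine per library separates cultures or days, so p-values measure the spread between these libraries. Of 20208 genes, 19033 above 10 in at least 5 libraries were tested on log2(value + 1) with limma 3.58.1 (R 4.3.3; trend and robust fit, 4 groups in 1 model, Benjamini-Hochberg adjustment); the pseudocount of 1 understates changes of weak genes. The alternatives were edgeR 4.0.16, DESeq2 1.42.0 and voom on recovered reads, other scaling, filters, pseudocounts, weights, surrogate variables (sva 3.50.0) and each library left out. The steps were tested on simulated data. In 36 pairs within groups no library repeated another. Genes described singly had the smallest p in each direction, over all genes and among those with a mean of at least 1000. The comparison and its gene lists were chosen with earlier results of these data known, and the gene lists could not be used, as no identifier was paired with a name.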

Additional observations from a re-analysis of the deposited data

Results flagged for a closer look

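Of 44 sets of library values tested for a single library far from its group, 8 held one, where chance gives about 1 in 20. The sets share libraries and related measures, such as depth and size factor, so they are not independent and this rate is only a rough guide. In Protein libraries, library 33 stood apart in depth, with 31.6 M reads (M, mega) against 16.2 M reads for the next, and in size factor, with 2.16 against 1.17. Protein library 20 had 308 genes at 0 against 149 for the next. Cellulose library 27 had 659 genes at 0 against 274 for the next, and a score of 77.1 on the second principal component against -1.16. The mean log2 level of the 266 genes called lower with Protein was 0.55 in Cellulose library 31 against 0.35 in the next Cellulose library. LABE_00025806-RA had a log2 value of 8.33 in Protein library 32 against 9.17 in the nearest other Protein library. LABE_00021266-RA had a log2 value of 7.16 in Lipid library 21 against 7.46 in the nearest other Lipid library.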

How the results depend on the processing

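The 4 genes described singly kept their direction and an unadjusted p under 0.01 under all 27 alternatives tried. On the first principal component the mean scores of the groups differed at an exact permutation p under 0.05 under all 16. The 4 genes were chosen for the smallest p in these same libraries, so their part of this was nearly fixed in advance. Against 517 genes called (251 higher, 266 lower with Protein), library weights gave 820 (414 higher, 406 lower, 1 at an adjusted p under 0.05), 1 surrogate variable gave 294 (132 higher, 162 lower), and DESeq2 on the 13 libraries gave 1056 (572 higher, 484 lower, 285 at an adjusted p under 0.05). EdgeR gave 424 higher genes with 1 at an adjusted p under 0.05, and voom 383 higher genes. A fit of the 2 groups alone gave 4 genes at an adjusted p under 0.05 and 413 called with and without library 33. In edgeR 518 genes were called without library 33, and 434 both with and without it. With each of the 13 libraries left out, the calls ran between 332 and 715, the higher calls between 152 and 371, those below an adjusted p of 0.05 between 0 and 1, and the genes whose groups do not overlap between 128 and 306, a count that grows by construction with fewer libraries. The median Lipid minus Empty fold change of the higher genes ran between 0.10 and 0.27 with each of the 25 libraries left out. With a pseudocount of 0.1 the groups differed by 42.5 on the second component (exact permutation p = 0.0443). Scaling moved the median of all genes from 0.00 by no more than 0.01. The cause of these shifts was not tested. The alternatives for the principal components, the counts of separated groups, the single library measures, the split by expression class and the Lipid and Empty libraries left out were chosen after seeing the data. No paired analysis was possible because each library carries a number of its own. Precision was lowest in genes below 50, where the interval of a log2 fold change reached 0.89 to either side and the SD from counting alone was 0.40 against a residual SD of 0.77.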
